A study of Mus musculus with 16 samples.

Results

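The cytosolic ribosome is built from a small and a large subunit, each a scaffold of ribosomal RNA dressed with one copy of most ribosomal proteins. Proteins of the small subunit carry the prefix RPS and those of the large subunit RPL, and the acidic proteins P0, P1 and P2 (*Rplp0*, *Rplp1* and *Rplp2*) form the lateral stalk that recruits the translation factors. In mammals the mRNAs of these proteins begin with a C followed by a run of pyrimidines, the 5′ terminal oligopyrimidine (TOP) tract, which couples their translation and stability to mTORC1 and LARP1. The genes are expressed in every cell that makes protein and are often treated as housekeeping genes. They were taken here as every protein-coding gene of the count table whose symbol has the form of a ribosomal protein symbol, without pseudogenes and without the *Rps6k* kinases. This gave 83 of 55487 genes: 43 of the large subunit, 31 of the small subunit (with *Rpsa*, the laminin receptor and ribosomal protein SA), 3 of the stalk and 6 paralogs (*Rpl3l*, *Rpl7l1*, *Rpl10l*, *Rpl22l1*, *Rpl39l* and *Rps27l*). Genes that the symbol pattern left out include *Rpl36al*, *Rps27rt*, *Fau* (RPS30) and *Rack1*. In every comparison 82 of the 83 passed the filter on low counts, and *Rpl10l*, the retroposed copy of *Rpl10*, did not: it had 1 read in all 16 libraries.

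Bulk RNA sequencing was done on mouse skin cells that had been sorted by CD45, a surface protein of all leukocytes, into CD45+ (immune) and CD45- (stromal) cells. Stretched samples were taken 6 h after hypobaric pressure, a suction applied to the skin, and controls came from unstretched skin of the same area. There were 4 libraries in each of 4 groups, named by the numbers in their titles: stromal control 1 to 4, stromal stretched 5 to 8, immune control 3 to 6 and immune stretched 1, 2, 7 and 8. The labels give no strain, age, sex or genotype, and leave unsaid whether the samples come from different animals; every p-value here reflects the spread among these samples alone, which may be technical.

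Depth differed between treatments without overlap in both fractions, at 13563586 to 20467010 counts in stromal controls and 21955174 to 26944965 in stretched stromal libraries, and at 2645421 to 6662268 in immune controls and 7018743 to 20095580 in stretched immune libraries. Immune control 4 and stromal stretched 7 and 8 stood apart: they held 5942, 408 and 200.3 CPM (counts scaled to the library total) on 1738 olfactory and vomeronasal receptor genes, which sensory neurons transcribe, against 17.8 to 68.8 in the other libraries, and they detected 35303, 35821 and 32977 genes against 20429 to 25955. The main counts and medians of each comparison are given with and without them. The summed level of 10 immune markers was 43.7 to 161 CPM in the stromal libraries and 9526 to 39090 CPM in the immune libraries, and *Ptprc*, which encodes CD45, was at 0.0644 to 3.39 CPM and 219.8 to 703 CPM. The summed level of 10 stromal markers was 37750 to 64390 CPM in the stromal and 1394 to 10090 CPM in the immune libraries. By these sums the sorted fractions matched their labels, while the immune libraries held some stromal transcripts. Single markers did not all follow: in controls, 6 of the 10 stromal markers were lower in immune cells and 2 higher (edgeR adjusted p under 0.05). Of 14 endothelial markers, 12 were higher and 1 lower in immune cells in controls, and 11 higher and 2 lower in stretched skin. Over all genes, 26.6% were higher and 22.8% lower in controls, and 23.9% higher and 25.1% lower in stretched skin.

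The TOP tract stood at the annotated start of a minority of the genes examined, but more often than among all genes tested. RefSeq promoter windows (build GRCm38.p6, 250 bases before to 50 after the annotated start) were matched by symbol for 63 of the 83 genes, and *Rplp1* is among the unmatched. A C at the annotated start followed by at least 4 C or T stood in 13 of the 63 (20.6%), against 3.0% of 27025 genes in the table and 3.0% of 12234 genes tested here. Within 5 bases before to 10 after the start, such a run stood in 46.0% of the matched ribosomal protein genes and in 23.9% of the genes tested. The windows below run 5′ to 3′ over 30 bases with the annotated start at their middle, and capitals mark the pyrimidine run that holds the start. These genes were chosen after their values were seen, as genes with and without the tract whose levels are described below. The first 3 have the tract at the annotated start: *Rplp2* (chr7:141447636-141447665, plus strand), *Rps21* (chr2:180257364-180257393, plus strand) and *Rpl15* (chr14:18270972-18271001, minus strand). The last 2, *Rpl4* (chr9:64173372-64173401, plus strand) and *Rpsa* (chr9:120127751-120127780, plus strand), have no pyrimidine at the annotated base.
Rplp2: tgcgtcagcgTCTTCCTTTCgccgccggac
Rps21: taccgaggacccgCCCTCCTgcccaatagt
Rpl15: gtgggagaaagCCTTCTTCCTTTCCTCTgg
Rpl4: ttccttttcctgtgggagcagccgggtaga
Rpsa: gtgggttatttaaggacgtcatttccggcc
An annotated start can lie some bases from the start used in these cells, so a missing run says only that the letters are not at that base.

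The string CCGGAAG, the core of the ETS family site bound by GABP, stood on either strand of the 300-base window in 26 of the 63 genes (41.3%), against 17.5% of the genes tested. AAGATGGC, the core of the YY1 site, stood in 9.5% against 4.6%. GGGCGG, the GC box, stood in 61.9% against 63.5%, and TATAAA in 11.1% against 10%. *Rps3a1* (chr3:86142654-86142683, minus strand) and *Rpl26* (chr11:68901551-68901580, plus strand) are shown as examples of the ETS string close to the start, with the string in capitals.
Rps3a1: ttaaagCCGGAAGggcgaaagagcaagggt
Rpl26: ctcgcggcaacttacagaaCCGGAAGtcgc
The 13 genes with the tract at the annotated start had a median log2 fold change of -1.03 in the stretched stromal libraries and -0.55 in the stretched immune libraries, and the 49 tested genes with a window but no such run had -0.96 and -0.48. Without the libraries that held receptor-gene reads the medians were -0.84 and -0.77 for the former genes and -0.70 and -0.67 for the latter. These medians describe the genes and no difference between them was tested.

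Stretched libraries gave a smaller share of their reads to the ribosomal protein genes in both fractions. In the stromal controls 3.345, 2.749, 3.115 and 1.971% of reads fell on the 83 genes, and in the stretched stromal libraries 1.754, 1.789, 1 and 1.597%. Every stretched stromal library lay below every stromal control, and stretched library 7, one of those with receptor-gene reads, was the lowest. In the immune controls the share was 4.985, 3.583, 3.57 and 3.65%, and in the stretched immune libraries 2.657, 2.239, 2.442 and 2.047%, again without overlap. Fewer cells of a type with many such transcripts and less of these mRNAs per cell cannot be told apart in bulk samples. A share depends on what else is in the library, so levels were also put on one trimmed-mean (TMM) scale. On this scale the median level of the 83 genes was 243.3 to 379.7 CPM in the stromal controls and 82.6 to 199.2 CPM in the stretched stromal libraries, without overlap. In the immune fraction it was 227.4 to 548.8 CPM in controls and 226.3 to 348.6 CPM in stretched libraries, and the groups overlapped through control 4, whose scale factor was 1.748 against 0.686 to 1.15 in the other libraries. Reads on 300 named ribosomal protein pseudogenes came to 1.497 to 2.72% of the members' own reads, and to 4.353% in immune control 4.

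**Figure D1:**
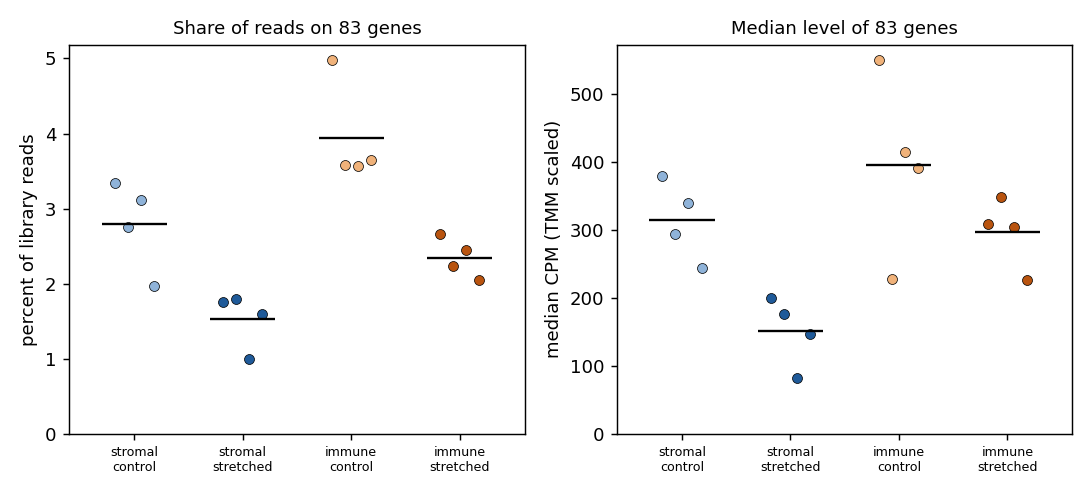
Left, percent of each library's reads on the 83 ribosomal protein genes; right, the median TMM-scaled CPM of these genes (points are libraries, bars are means of 4). The share is lower in each stretched library than in each control of its fraction, while the scaled medians overlap in the immune fraction because control 4 sits at 227.4 CPM.

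Levels per length spanned a wide range. On the scale of CPM per kilobase of the principal transcript, averaged over the 16 libraries, *Rpl41* (1609), *Rpl37a* (1378), *Rps14* (1322), *Rplp1* (1166), *Rplp2* (1166) and *Rpl38* (1146) stood highest. With the longest annotated transcript as the length, the order changed to *Rplp1* (1166), *Rpl37a* (1157), *Rpl41* (1012), the paralog *Rps27l* (937.2) and *Rpl38* (865.2), so the order depends on the transcript chosen. Among the 77 genes that are not paralogs, 73 had group means between 61.9 and 1426 CPM. The other 4 were far lower in all groups. *Rpl13a* was at 9.67 CPM, *Rpl24* at 1.504 CPM, *Rps10* at 3.64 CPM and *Rpl23a* at 23.1 CPM in the stromal controls (means of 4 libraries). Other annotated genes share 35.4% of the exonic bases of *Rpl13a*, 47.0% of *Rpl24*, 28.7% of *Rps10* and 62.3% of *Rpl23a*. *Rpl35* shares 66.2% of its exonic bases and still held 160.1 to 484.4 CPM as group means. How reads in shared exons or in near-identical copies were counted is not given in the sources used here, and these 4 genes are therefore uncertain as levels.

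**Figure D2:**
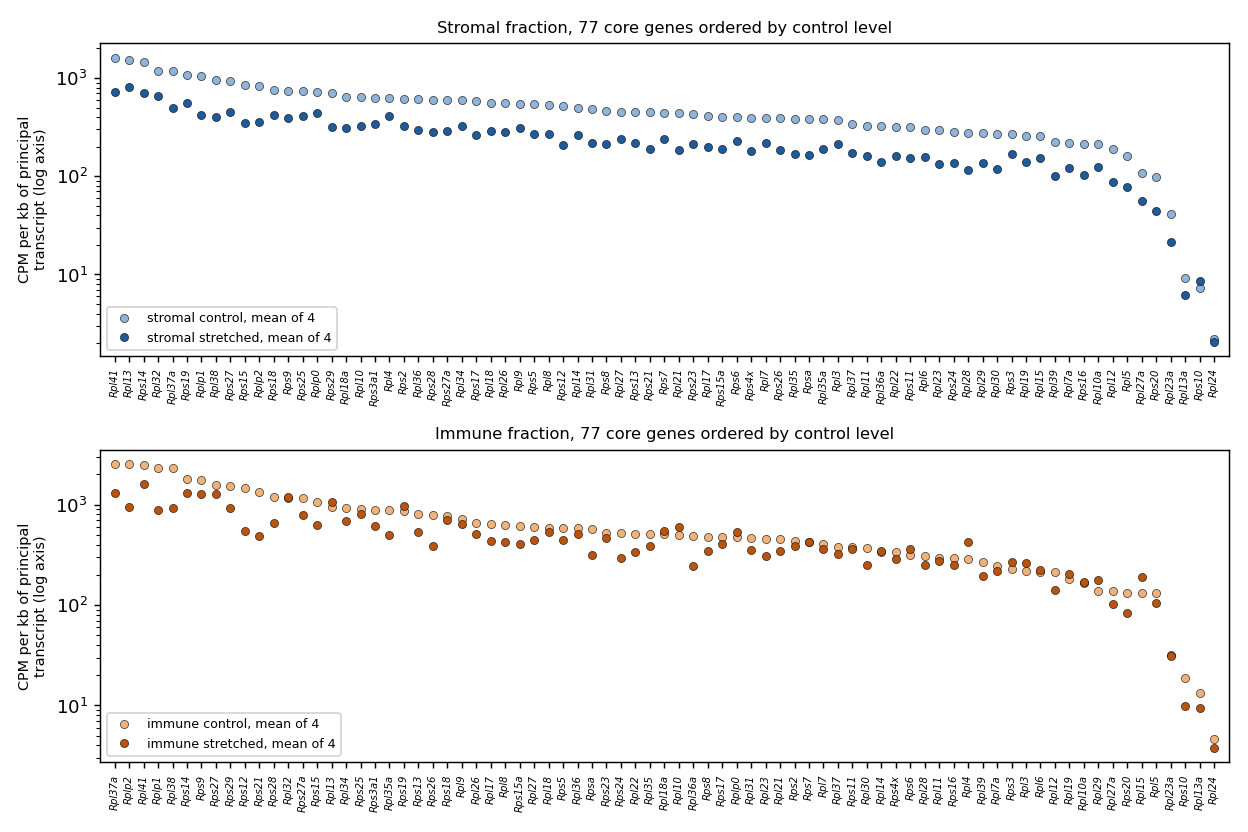
Mean CPM per kilobase of the principal transcript (log axis, means of 4 libraries) for the 77 ribosomal protein genes without paralogs, ordered by their control level, in the stromal (top) and immune (bottom) fraction. Stretched means lie below control means for 76 of the 77 stromal genes, *Rps10* being the other, and 4 genes sit far below the rest in both fractions.

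Stretched and control stromal cells were compared to see how non-immune skin cells had changed 6 h after the suction. Of 82 tested ribosomal protein genes, 80 had a negative log2 fold change, with a median of -1.005 (a 2.01-fold lower level), an interquartile range of -1.12 to -0.86 and a range of -1.32 to 0.40. The median over all 16074 genes tested was 0.01. In the edgeR quasi-likelihood test with Benjamini-Hochberg adjustment over all genes, 35 of the 82 fell and 0 rose, beside 2.93% of all genes called lower and 2.05% called higher. For 71 of the 82, all 4 stretched libraries lay below all 4 controls, beside 10.2% of all genes. The adjusted p values of the 35 lay between 0.0424 and 0.05, a further 39 lay between 0.05 and 0.1, and 8 were at 0.1 or above. The number called therefore turned on small changes. It fell to 0 when stromal control 1, 2 or 3 or stretched 6, 7 or 8 was left out. The test as a whole lost its calls there: 0 genes of the whole table were called lower, or 1 without stretched 6. The number of members called was 55 without control 4, beside 489 of 16748 genes called lower. It was 58 without stretched 5, beside 1031 of 16650 genes. The median without these single libraries stayed between -1.15 and -0.82, and without both stretched libraries that held receptor-gene reads it was -0.72, with 80 of 82 genes negative and 0 called. In that fit the adjusted p of the 82 was 0.267 or higher, so none of the calls named below held, and 0 of 16601 genes were called. Without them 71 of the 82 still showed no overlap, beside 13.2% of all genes. DESeq2 called 76 of the 82 lower, beside 8.15% of all genes, and limma-voom 77, beside 12.7%.

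*Rplp1* (ENSMUSG00000007892, chromosome 9, 61913284 to 61914542, minus strand, GRCm38), a stalk protein, was at 647.4, 461.3, 639.0 and 330.0 CPM in stromal controls 1 to 4. In stretched libraries 5 to 8 it was at 257.5, 244.5, 107.7 and 219.6 CPM. All stretched libraries lay below all controls, with library 7 lowest, and *Rplp1* fell by 1.32 ± 0.31 (SE) on the log2 scale (adjusted p = 0.046 in edgeR). Its partner *Rplp2* (ENSMUSG00000025508, chromosome 7, 141447370 to 141451585, plus strand) was at 394.3, 325.2, 424.1 and 236.9 CPM in controls and at 206.4, 154.1, 77.05 and 163.9 CPM in stretched libraries. It fell by 1.20 ± 0.29 (adjusted p = 0.0483 in edgeR), and its groups did not overlap either. *Rplp0* (ENSMUSG00000067274, chromosome 5, 115559467 to 115563727, plus strand), which anchors P1 and P2 to the ribosome, was at 1061, 1010, 1015 and 786.3 CPM in controls and at 740.0, 699.5, 347.8 and 595.4 CPM in stretched libraries. The groups did not overlap, and its log2 fold change of -0.70 ± 0.25 did not pass the test (adjusted p = 0.106 in edgeR). Within single libraries the ratio of *Rplp1* to *Rplp0* was 0.42 to 0.63 in stromal controls and 0.31 to 0.369 in stretched stromal libraries.

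Among the 43 large-subunit genes, all log2 fold changes were negative (median -0.97, range -1.25 to -0.09). Of these, 18 fell and 39 showed no overlap, beside 2.93% and 10.2% of all genes. Without stretched libraries 7 and 8 the median was -0.71, and 39 showed no overlap, beside 13.2% of all genes. *Rpl21* (-1.25 ± 0.27, adjusted p = 0.0431 in edgeR) and *Rpl28* (-1.24 ± 0.30) were among the largest changes that passed. *Rpl36a*, from 169.3, 150.4, 177.8 and 125.0 CPM in controls to 86.7, 70.9, 38.2 and 72.1 CPM in stretched libraries, fell by 1.21 ± 0.24 and shared the smallest adjusted p of the family (0.0424 in edgeR) with *Rpl23a* (-0.94 ± 0.19), one of the 4 genes at low level. *Rpl38*, which is known for its part in translating Hox mRNAs, had a log2 fold change of -1.22 ± 0.33 that did not pass (adjusted p = 0.0535 in edgeR), with control 4 (187.1 CPM) below stretched library 5 (206.0 CPM). *Rpl4* (-0.59 ± 0.21) and *Rpl15* (-0.76 ± 0.20) had smaller log2 fold changes that did not pass.

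Among the 31 small-subunit genes the median log2 fold change was -1.04 and 15 fell, beside 2.93% of all genes. Without stretched libraries 7 and 8 the median was -0.78. *Rps21* was at 228.1, 157.7, 215.3 and 101.1 CPM in controls and at 82.01, 88.7, 40.3 and 84 CPM in stretched libraries. It fell by 1.25 ± 0.30 (adjusted p = 0.0479 in edgeR) with no overlap. *Rps15* (-1.29 ± 0.32), *Rps28* (-1.09 ± 0.24) and *Rps29* (-1.12 ± 0.25) fell as well, and so did *Rps4x*, the X-linked copy of RPS4 (-1.12 ± 0.27). *Rps12* had a log2 fold change of -1.31 ± 0.34 that did not pass (adjusted p = 0.0514 in edgeR), and control 4 at 142.5 CPM lay below stretched library 6 at 149.0 CPM. *Rpsa* was at 717.1, 588.1, 756.4 and 392.1 CPM in controls and at 336.2, 341.2, 116.3 and 252.8 CPM in stretched libraries, a log2 fold change of -1.23 ± 0.33 that did not pass (adjusted p = 0.0544 in edgeR) though the groups did not overlap. *Rps10* was the only core gene with a positive log2 fold change (0.25 ± 0.32, not called). With the reads of its 4 named pseudogenes added its value was -0.53, so its sign depends on how copies are counted.

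None of the 5 tested paralogs was called. *Rps27l*, a p53 target that can replace RPS27, went from 530.2, 451.7, 620.9 and 286.0 CPM to 293.5, 263.4, 130.2 and 239.0 CPM (log2 fold change -1.02 ± 0.30), with an overlap at control 4. *Rpl22l1* (-0.59 ± 0.17) was the paralog whose groups did not overlap. *Rpl39l* (-0.79 ± 0.39), *Rpl7l1* (-0.24 ± 0.26) and the muscle paralog *Rpl3l* (0.40 ± 0.39) overlapped between groups, and *Rpl3l* was at 1.55 to 5.65 CPM over the stromal libraries.

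**Figure D3:**
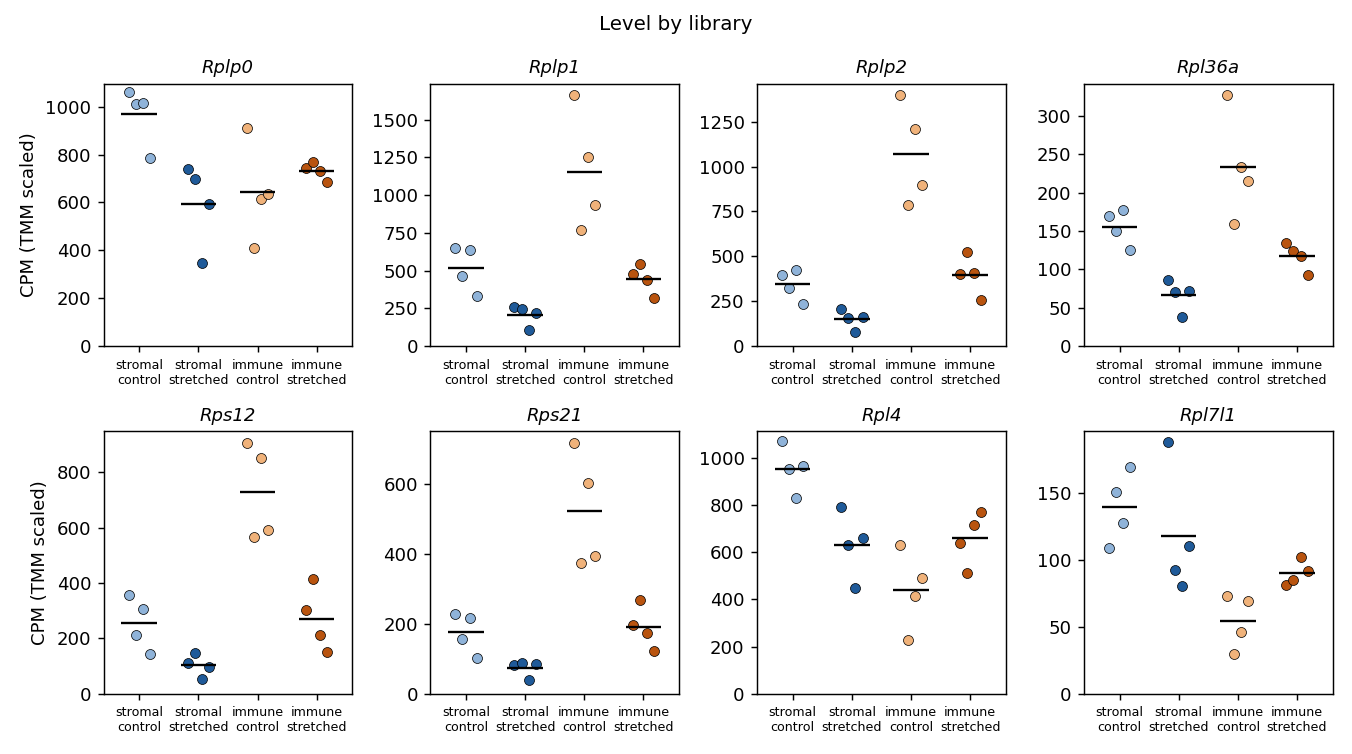
TMM-scaled CPM of 8 ribosomal protein genes in each library (points; bars are means of 4). *Rplp1*, *Rplp2*, *Rpl36a* and *Rps21* show no overlap between control and stretched libraries in either fraction, and *Rplp0*, *Rpl4* and *Rpl7l1* have higher means in stretched than in control immune libraries.

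Stromal log2 fold changes ran along with transcript length across the whole transcriptome, so the family was set beside genes of its own length. The median principal transcript of the 82 tested members had 705 nt, against 2796 nt for all genes tested in the stromal comparison. Other genes with principal transcripts up to 500 nt had a median log2 fold change of -0.80 in the stretched stromal libraries, and the 19 ribosomal protein genes of that length had -1.15. From 500 to 1000 nt the medians were -0.70 for 846 other genes and -0.96 for 44 members, and from 1000 to 1500 nt -0.47 for 1395 other genes and -0.92 for 13 members. Other genes of 3000 to 5000 nt had a median of 0.29. Short genes outside the family were thus lower too, and members lay below them in each bin that held members. Spearman's rho of log2 fold change with principal transcript length was 0.455 across 13447 genes and 0.291 across the 82 members, which share libraries and are not independent replicates. With the longest annotated transcript it was 0.423 across 16071 genes and 0.221 across the members. Without stretched libraries 7 and 8 the medians of the 3 shortest bins of the principal transcript were -0.61, -0.51 and -0.32 for other genes and -0.89, -0.72 and -0.61 for members. In that fit rho was 0.328 across all genes and 0.375 across members. With each library corrected by offsets for a smooth dependence on length and base composition, 79 of the 82 genes stayed negative, with a median of -0.64. Of the 82, 0 were called, beside 1 lower and 3 higher of all 16071 genes in that fit. With a covariate for how many genes each library detected, 78 stayed negative with a median of -0.51. Again 0 were called, beside 0 lower and 1 higher of 16074 genes. Summed levels of 12 skeletal muscle markers were 573 to 1421 CPM in stromal controls and 1015 to 2230 CPM in stretched stromal libraries, and 11 of 11 tested had positive log2 fold changes. Those of 14 endothelial markers were 230.6 to 309.3 and 332.9 to 482.3 CPM, with 14 of 14 positive. None of these markers was at 0 in all libraries of a stromal group. Their part in the lower level of the ribosomal protein genes was not tested.

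**Figure D4:**
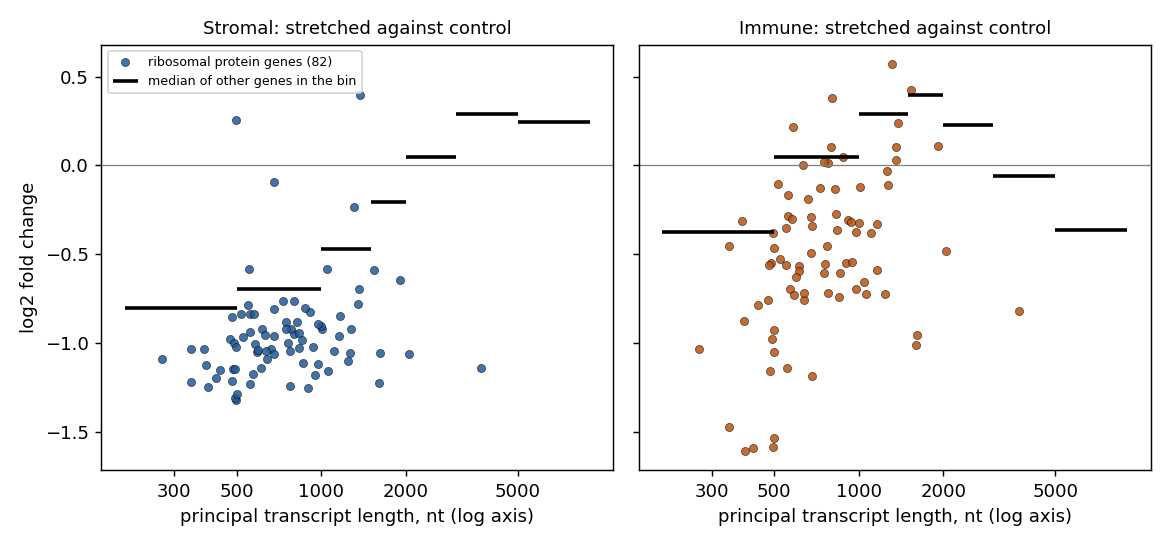
log2 fold change against length of the principal transcript (log axis) for the 82 tested ribosomal protein genes (points), with the median of all other genes in each length bin (black lines; the outer ends of the first and last line are arbitrary). In the stromal fraction the line rises from -0.80 in the shortest bin to 0.29 at 3000 to 5000 nt and most points lie below it; in the immune fraction it peaks at 0.40 from 1500 to 2000 nt.

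In the other lists of the stromal fraction, counts of lower genes are read beside the 2.93% called lower among all genes. Of 34 translation factors, 29 had negative log2 fold changes (median -0.51) and 1 fell, *Eif3f* (-0.86 ± 0.22), a subunit of initiation factor eIF3, which is 1 gene and near that background. The fusion gene *Fau*, which encodes RPS30, fell by 1.17 ± 0.29 (adjusted p = 0.0483 in edgeR), and *Rack1* had a log2 fold change of -0.81 ± 0.30 that did not pass. Of 53 tested ribosome biogenesis genes 1 fell, the small nucleolar RNP protein gene *Nop10* (-0.94 ± 0.22), again near the background, and the median was -0.02. Of 24 genes of the mTORC1, LARP1 and MYC pathways that act on ribosomal protein mRNAs or genes, 0 were called and the median was 0.14. The 77 tested proteins of the mitochondrial ribosome, a separate set of nuclear genes, had a median of -0.78 with 22 lower and 0 higher. The 74 tested nuclear oxidative phosphorylation subunits had a median of -0.89 with 34 lower and 0 higher. The median principal transcript had 1280 nt in the first of these lists and 680 nt in the second, and no difference between the lists was tested. Without stretched libraries 7 and 8 none of these genes was called. The medians were then -0.21 for translation factors, 0.22 for biogenesis genes, 0.21 for the mTORC1, LARP1 and MYC pathways, -0.55 for the mitochondrial ribosome and -0.69 for oxidative phosphorylation subunits.

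In the immune fraction no ribosomal protein gene passed the test. In edgeR 0 of 82 were called lower and 0 higher, as for all 14183 genes tested (0.0% lower and 0.0% higher). At an unadjusted p under 0.05, 24 of the 82 were lower, beside 8.5% of all genes. DESeq2 called 13 of the 82 lower, beside 2.71% of all genes, and limma-voom 16, beside 3.32%. The log2 fold changes were negative for 69 of 82, with a median of -0.51 (a 1.43-fold lower level) and a range of -1.61 to 0.57, beside a median of -0.02 over all genes. All 4 stretched libraries lay below all 4 controls for 8 of the 82, beside 3.14% of all genes, and above them for 1, beside 8.55%. The 8 were *Rplp1*, *Rplp2*, *Rps12*, *Rps21*, *Rps26*, *Rpl36a*, *Rpl37a* and *Rpsa*, all of them also negative in the stromal fraction. Over 23 alternatives, 46 to 78 of the genes were negative. In a fit of all 16 libraries that blocked on the title numbers as replicates the median was -0.07, with 46 genes negative. It was -0.31 without control 3. Without control 4, the immune library with receptor-gene reads, it was -0.68 with 78 genes negative and 0 called, and 36 genes lay lower without overlap, beside 5.67% of all genes.

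*Rplp1* was at 1662, 768.8, 1256 and 935.9 CPM in immune controls 3 to 6. In stretched libraries 1, 2, 7 and 8 it was at 478.1, 541.3, 438.1 and 321.6 CPM, below every control (log2 fold change -1.53 ± 0.35, adjusted p = 0.134 in edgeR). *Rplp2* was at 1396, 787.3, 1208 and 896.6 CPM in controls and at 399.3, 521.5, 408.4 and 255.7 CPM in stretched libraries (-1.59 ± 0.35). *Rplp0* did not share this, at 909.6, 409.8, 613.5 and 634.2 CPM in controls and 743.8, 769.5, 729.5 and 683.9 CPM in stretched libraries. The ratio of *Rplp1* to *Rplp0* within a library was 1.476 to 2.047 in immune controls and 0.47 to 0.703 in stretched immune libraries, and that of *Rplp2* to *Rplp0* was 1.414 to 1.969 and 0.374 to 0.678. Such ratios do not depend on the scale factors and show unequal values of the stalk genes, and they were chosen after the values were seen. The annotated exons of *Rplp1*, *Rplp2* and *Rplp0* cover 499, 2072 and 1659 bases, and the part of length in the ratios was not tested.

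*Rps21* was at 716.6, 374.5, 602.2 and 394.1 CPM in immune controls and at 196.8, 269.2, 173.1 and 122.5 CPM in stretched libraries, with no overlap (-1.61 ± 0.36). *Rps12* was at 904.7, 564.9, 851.2 and 593.0 CPM in controls and at 301.4, 414.9, 212.0 and 150.5 CPM in stretched libraries (-1.58 ± 0.39). *Rpl38* had a value of similar size (-1.47 ± 0.39), but stretched library 2 at 465.0 CPM reached control 4 at 464.3 CPM. *Rps26* (-1.19 ± 0.30), *Rpl36a* (-1.16 ± 0.27) and *Rpsa* (-1.01 ± 0.31) were lower in each stretched library than in each control without passing the test.

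At the other end stood *Rpl7l1*, a paralog of *Rpl7*. It was at 73.1, 29.6, 46.5 and 69.4 CPM in immune controls and at 81.3, 85.2, 102.0 and 91.8 CPM in stretched libraries, above every control (0.57 ± 0.26, adjusted p = 0.292 in edgeR). *Rpl4* (0.43 ± 0.31) and *Rpl15* (0.38 ± 0.30) also had positive values, with overlapping groups. *Rps27l* had a log2 fold change of -0.47 ± 0.44 with wide overlap, from 289.3 to 1175 CPM in controls and from 433.4 to 920.0 CPM in stretched libraries.

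The immune values of the family ran along with the length of the principal transcript too. The 19 members up to 500 nt had a median log2 fold change of -0.93, all of them negative, the 44 members from 500 to 1000 nt -0.37, and the 13 from 1000 to 1500 nt -0.12. Other genes in these bins had -0.38, 0.05 and 0.29. Spearman's rho with principal transcript length was 0.418 across the 82 members and -0.319 across 12421 genes, as longer genes outside the family turned lower again. With the longest annotated transcript as the length, rho was weaker, at 0.161 across the members and -0.203 across 14182 genes. The members' medians were then -1.47, -0.51, -0.42 and -0.33 in the bins up to 2000 nt, and -0.59 from 2000 to 3000 nt. How closely the values ran with length thus depends on the transcript chosen. Without control 4 the bins had medians of -1.07, -0.56 and -0.28 for members and -0.55, -0.09 and 0.19 for other genes, and rho was 0.442 and -0.191. The log2 fold changes of the 2 fractions, which share no library, had a Spearman's rho of 0.654 across the 82 members, and the points share transcript length. It was 0.616 without the libraries with receptor-gene reads. The interquartile range was 0.516 in the immune and 0.255 in the stromal fraction, so the immune values were spread more widely between genes. Summed levels of 10 immune markers were 9526 to 19100 CPM in immune controls and 25790 to 39090 CPM in stretched immune libraries. Of these markers, 8 had positive and 2 negative log2 fold changes. Summed levels of 14 neutrophil markers were 1863 to 11010 CPM in immune controls. They were 39960 CPM in stretched library 2, but 1762, 1424 and 1423 CPM in stretched libraries 1, 7 and 8, below every control. In controls and stretched libraries, those of 10 stromal markers were 1394 to 8731 and 1404 to 10090 CPM, and those of 14 endothelial markers 298.1 to 1565 and 187.9 to 659 CPM. By gene, 12 of 12 tested neutrophil markers had positive and 14 of 14 endothelial markers negative log2 fold changes. Of the stromal markers 6 were positive and 4 negative, and 0 of all these markers were called. None of the 10 immune, 14 neutrophil, 10 stromal or 14 endothelial markers was at 0 in all libraries of an immune group. Their part in the values of the ribosomal protein genes was not tested.

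**Figure D5:**
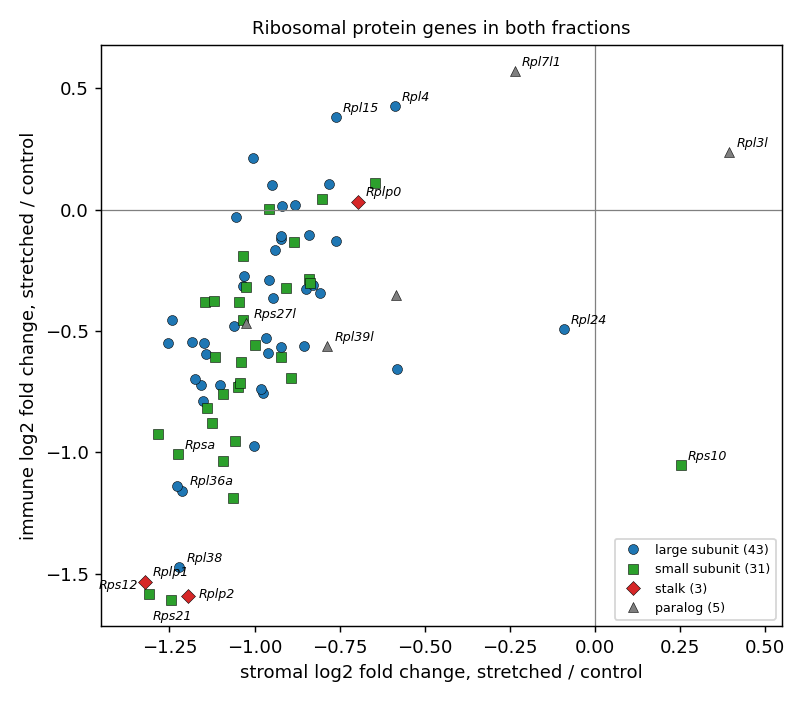
log2 fold change of stretched against control in the immune (vertical) and stromal (horizontal) fraction for 82 ribosomal protein genes, by class. *Rplp1*, *Rplp2*, *Rps12*, *Rps21* and *Rpl38* lie low in both, while 12 genes including *Rpl4*, *Rpl15* and *Rpl7l1* are negative in stromal and positive in immune cells.

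Signs agreed for most genes: 68 of 82 were negative in both fractions, and 12 were negative in the stromal and positive in the immune fraction. Without the 3 libraries with receptor-gene reads these counts were 76 and 4. The difference of the stretch effects, immune minus stromal, had a median of 0.67 over the 82 genes with 74 positive, beside a median of 0.03 over 18295 genes. Other genes of similar principal transcript length had values much like those of the members. Other genes had medians of 0.52 up to 500 nt, 0.77 from 500 to 1000 nt, 0.81 from 1000 to 1500 nt and 0.68 from 1500 to 2000 nt of principal transcript, and the members 0.37, 0.70, 0.81 and 0.64. With the longest annotated transcript the likeness was less close. Other genes then had 0.13, 0.32, 0.68, 0.59 and 0.34 in the bins up to 3000 nt, and the members -0.05, 0.69, 0.68, 0.80 and 0.62. With the length and GC offsets the members' median was 0.31, and with offsets on the principal transcript 0.25. In edgeR 0 of 82 were called in either direction, as for all genes (0.0% lower and 0.0% higher). At an unadjusted p under 0.05, 24 of the 82 were higher and 1 was lower, beside 13.6% and 9.57% of all genes. DESeq2 called 4 higher and 1 lower, beside 4.02% and 4.86%, so its higher calls were near the background. Limma-voom called 17 higher and 0 lower, beside 6.18% and 1.77%. The smallest adjusted p belonged to *Rpl29* (1.38, adjusted p = 0.0883 in edgeR), with -1.01 ± 0.25 in the stromal fraction, where it fell. *Rpl15* (1.29) and *Rpl10* (1.21) followed. Without the 3 libraries with receptor-gene reads the median of the difference was 0.13, with 51 genes positive and 0 called.

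The sorted fractions were also compared with each other within each treatment. In unstretched skin, 20 of the 82 were higher in immune than in stromal cells and 5 were lower (edgeR), beside 26.6% of 15142 genes called higher and 22.8% called lower, so the share of members called (24.4% higher and 6.10% lower) was near the background in the first direction and below it in the second. The median log2 difference, immune minus stromal, was 0.35. It was 0.045 with length and GC offsets (10 higher and 9 lower, beside 3215 and 3992 of 15140 genes). It turned to -0.13 with offsets on the principal transcript (7 higher and 15 lower, beside 3241 and 4041 genes), so its direction depends on the treatment of length. Members up to 500, from 500 to 1000 and from 1000 to 1500 nt of principal transcript had medians of 0.87, 0.26 and 0.15. Other genes in these bins had 0.64, 0.02 and -0.39. Of the 19 members up to 500 nt, 12 were called higher, beside 26.6% of all genes. *Rplp2* was 1.73 ± 0.31 higher on the log2 scale (adjusted p = 0.000893 in edgeR), *Rps21* 1.67 ± 0.34, *Rps12* 1.62 ± 0.34, *Rpl38* 1.39 ± 0.35 and *Rplp1* 1.25 ± 0.34. *Rpl35a* (1.297 ± 0.32) and *Rps9* (1.36 ± 0.31) were higher as well. The lower genes were *Rpl39l* (-1.90 ± 0.50), *Rpl7l1* (-1.26 ± 0.29), *Rpl4*, *Rpl29* and *Rpl15*, each without overlap between the groups. *Rpl39l* was at 45.8, 77.6, 62.6 and 33.2 CPM in stromal controls and at 32.3, 9.24, 6.18 and 7.38 CPM in immune controls. These control libraries also enter the stretch comparisons, so the values are set side by side and not as separate support. The count of higher genes was 12 without immune control 3, 26 without immune control 4 (beside 26.3% of all genes, with a median of 0.48) and 13 without immune control 5, stromal control 2 or stromal control 4. Over all genes, 4389 of 16707 were called higher without immune control 3 and 3869 of 16644 without immune control 5. Without stromal control 2 or 4 the counts were 3502 of 14925 and 3687 of 14972.

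In stretched skin, 41 of the 82 were higher in immune than in stromal cells and 1 was lower (edgeR), beside 23.9% and 25.1% of 17116 genes. The median log2 difference was 0.73, and for 61 of the 82 all 4 immune libraries lay above all 4 stromal ones, beside 26.6% of all genes. Other genes up to 500, from 500 to 1000 and from 1000 to 1500 nt of principal transcript had medians of 0.80, 0.58 and 0.19, and the members 1.02, 0.73 and 0.53. *Rps9* (1.61 ± 0.34), *Rps29* (1.41 ± 0.26), *Rps27* (1.37 ± 0.29), its paralog *Rps27l* (1.35 ± 0.32), *Rps27a*, the ubiquitin fusion gene (1.33 ± 0.35), and *Rpl37a* (1.26 ± 0.28) were among the higher genes. *Rpl39l* was the lower one (-1.71 ± 0.41). Without stromal stretched libraries 7 and 8, which held receptor-gene reads, the median was 0.48 and 2 genes were called higher, *Rps28* and *Rps29*, beside 16.3% of all genes, while 61 lay higher without overlap, beside 31.5%. Single omissions of stromal stretched 7, stromal stretched 8 and immune stretched 1 left 23, 19 and 21, beside 3823 of 17331, 3476 of 17409 and 3566 of 17765 genes. With the length and GC offsets 6 were called higher, beside 3507 of 17113 genes, and the median was 0.16. With offsets on the principal transcript 2 were called higher, beside 3523 of 17113 genes, and the median was 0.03.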

How the data were processed

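Bulk RNA sequencing of 16 mouse skin samples was analysed. The labels' protocols name the SMART-Seq mRNA LP kit for cDNA and Nextera XT for the libraries. FastQC 0.11.9, STAR (no version stated) and the build mm10 are listed per the submitters' processing notes. The authors deposited raw counts for each Ensembl gene, without normalization. For the counting tool, strand setting, annotation and multiply mapped reads, the answer is not given in the sources used here, so near-identical copies, overlapping genes and antisense partners cannot be told apart with certainty. GENCODE M21 (GRCm38, the assembly of mm10) gave symbols, coordinates and lengths for 55394 of 55487 IDs. Start-site sequences are RefSeq's (GRCm38.p6).

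Total counts were 2645421 to 26944965 per library. Each comparison used edgeR 4.0.16 under R 4.3.3 on the libraries of its groups (all 16 for the difference of effects), with filterByExpr (minimum count 10, minimum total 15), TMM factors, the quasi-likelihood test and Benjamini-Hochberg adjustment over all genes tested. Genes with an adjusted p under 0.05 were called. Standard errors come from the F statistic. Levels are TMM-scaled CPM over all 16 libraries. The principal transcript is the shortest one annotated as principal (APPRIS) and basic, a measure added after the data were seen. Scripts were tested on simulated counts. No pair of libraries in a group was a copy of another.

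The members, lists and tests were chosen with earlier results of these data known. Named members were the 6 with the smallest p and the 6 with the largest absolute log2 fold change in each comparison, the 6 highest per kilobase, the stalk genes, *Rpsa*, *Rps4x*, the paralogs, and those with a sign opposite to the member median. *Rpl13a*, *Rpl24*, *Rpl23a* and *Rpl35* were also named for their level or exon sharing, after their values were seen. From the other lists, the 4 with the smallest p in each stretch comparison could be named. *Rack1* was named from the same list as *Fau*, of which another gene is not reported here. Title numbers occur in both fractions but never in both treatment groups of a fraction, and same-numbered samples correlated by -0.121 to 0.162, so the numbers were not taken as pairs. Alternatives were RLE and upper-quartile factors, factors without the members, DESeq2 1.42.0, limma-voom (limma 3.58.1), no filter, a stricter filter (50 reads in 4 libraries), offsets for length and GC content (splines with 4 degrees of freedom, prior count 2), a covariate for detected genes, a single fit of all 16 libraries, a block for the title number, pseudogene reads added to their parents, and omission of libraries. Offsets on the principal transcript and offsets fitted without the members were chosen after seeing the data, as were the length bins, lists and overlap counts without the 3 libraries with receptor-gene reads. Protein sequences were not analysed here.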

Additional observations from a re-analysis of the deposited data

Results flagged for a closer look

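In 160 groups of 4 values checked for a library far from its group, 6 had one, and chance flags about 1 in 20 groups. Stromal stretched library 7, one of the libraries with receptor-gene reads, lay far below the other stretched stromal libraries for *Rps21* (40.3 CPM against 82.01 to 88.7), *Rps28* (49.7 CPM against 82.98 to 88.3) and *Rps29* (77.6 CPM against 136.5 to 143.5). Immune control 3 gave 4.985% of its reads to the ribosomal protein genes against 3.57 to 3.65% in the other immune controls. The same library held *Rpl39l* at 32.3 CPM against 6.18 to 9.24 CPM. *Rpl3l* was at 19.3 CPM in immune stretched library 2 against 0.903 to 3.18 CPM in the other stretched immune libraries. These libraries were left out in turn in the values given below.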

How the results depend on the processing

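Depth differed between treatments in each fraction, the labels give no batch, and 3 libraries held receptor-gene reads. The stromal call count was fragile and its median was not reversed by any of 23 alternatives (-1.15 to -0.51). Members called lower in the stromal fraction (35) numbered 54 with upper-quartile factors, 76 with DESeq2, 77 with limma-voom, 66 without a filter and 65 with the stricter filter. Over all genes these fits called 658, 1310 and 2039 of 16074, 883 of 41025 and 843 of 11885 lower, against 471 of 16074. Members called lower numbered 0 with each kind of length and GC offset, the covariate, all 16 libraries in 1 fit, the replicate block, and without the libraries with receptor-gene reads, and 0 to 58 with single libraries left out. Each fit with 0 members called lower also called only 0 or 1 of all genes lower. The median was -0.513 with the covariate and -0.565 with offsets on the principal transcript. In the immune fraction 13 (DESeq2), 16 (limma-voom) and 4 (all 16 libraries) were called lower against 0. Over all genes these fits called 385 and 471 of 14183 and 110 of 18295 lower. The immune median was -0.31 to -0.68 with single libraries left out. For the difference of effects, DESeq2 called 1 lower and 4 higher and limma-voom 17 higher against 0, and the median (0.67) was 0.201 with the covariate, 0.127 without the receptor-read libraries, 0.312 and 0.252 with the offsets and 0.34 to 0.81 with single libraries left out. RLE and upper-quartile factors moved that median to 0.486 and 0.459 and the median of all genes from 0.03 to -0.188 and -0.244.

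Immune against stromal in controls (5 lower, 20 higher, median 0.35) gave 8 lower with limma-voom, 9 lower and 10 higher with length and GC offsets (also fitted without members), 15 lower and 7 higher with offsets on the principal transcript, whose median reversed to -0.127, and 8 higher without a filter. Over all genes, limma-voom called 4243 of 15142 lower, and the fit without a filter called 4812 of 40451 higher. Length and GC offsets called 3992 of 15140 genes lower and 3215 higher. On the principal transcript 4041 were called lower and 3241 higher. Single omissions gave 3 to 6 lower and 12 to 26 higher. In stretched skin (1 lower, 41 higher, median 0.73) limma-voom called 64 higher, no filter 27, the covariate 1 (median 0.277) and the fit without receptor-read libraries 2. Over all genes these fits called 4867 of 17116, 3962 of 41452, 2458 of 17116 and 2889 of 17753 higher. Offsets gave 2 lower and 6 higher (median 0.16, and 0.161 fitted without members), and 6 lower and 2 higher on the principal transcript (median 0.027). Over all 17113 genes, offsets called 4858 lower and 3507 higher, and 4936 and 3523 on the principal transcript. Single omissions gave 19 to 44 higher.

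With the replicate block the stromal median was -0.98 with 0 called, the immune median -0.066 and the difference 0.913. For immune against stromal in controls, that fit called 10 members higher and 5 lower, beside 3620 and 3583 of 18295 genes. In stretched skin it called 25 higher and 0 lower, beside 3059 and 1721 of 18295 genes. Same-numbered samples correlated by -0.121 to 0.162 and are not known to be paired. Stromal *Rpl7l1* turned to 0.165 with the covariate and 0.024 with offsets on the principal transcript, stromal *Rps10* to -0.533 with pseudogene reads added, and immune *Rps27l* to 0.014 with the replicate block. For single genes, 182 of the stromal values under these alternatives lost their call and 55 gained one, and 427 kept direction and side of the threshold. The causes of these changes were not tested.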
